A study of Mus musculus with 18 samples.

Results

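The 35 genes described here are a list of macrophage genes, followed in lymphatic endothelial cell (LEC) and blood vascular endothelial cell (BEC) isolates from mouse embryos. They were given by symbol, as genes known from macrophages. All 35 were found among the 19938 genes that could be named on the array, each on a single probe set (transcript cluster). The study hybridised total RNA from LEC and from BEC isolated at embryonic days 14.5, 16.5 and 18.5 (E14.5, E16.5, E18.5) to Affymetrix Mouse Gene 1.0 ST arrays, 18 in all. Each of the 6 groups held 3 biological replicates, and at each age the LEC and BEC samples came from matching litters. The labels name no strain, genotype or treatment for any group, and give the tissue only as embryonic. How the cells were separated is stated only by reference to an earlier publication and was not used here, and no gating markers are named in the labels. Values are log2 intensities after robust multi-array averaging (RMA), so a difference of 1 is a 2-fold difference, and ± beside a difference is its standard error in the limma fit.

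Macrophages are tissue-resident phagocytes that engulf dying cells and debris, and in the embryo they settle in the skin and other organs, where many lie close to lymphatic vessels. Their survival depends on CSF1R, the receptor of colony-stimulating factor 1, and their gene programme on the ETS factor PU.1, encoded by Spi1. Several genes of the list are not restricted to macrophages: Mrc1 is also known in lymphatic endothelium, Fcer1g, Tyrobp and Laptm5 in mast cells and other leukocytes, and Apoe in many cell types. In bulk samples, fewer cells of a type and less RNA per cell cannot be told apart.

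The labelled cell types matched their markers: all 9 measured lymphatic endothelial genes were higher in LEC over the 3 ages (median log2 difference 4.03) and all 10 blood endothelial genes were lower (median -3.19). The isolates also carried RNA of other cell types. Of the mast cell list, 9 of 9 genes were higher in LEC (median 2.68), of the pan-leukocyte list 6 of 6 (2.33), and of the keratinocyte list 6 of 6 (0.83). The neutrophil list had 3 of 9 genes higher and 1 lower, the dendritic cell and Langerhans cell list 2 of 8 lower, and the monocyte list 1 of 3 higher (Ccr2), where 18.2% of all genes were called higher and 19% lower. Array medians ran from 5.434 to 5.582, and the interquartile range was narrower on the E18.5 arrays (3.182 to 3.362) than on the others (3.403 to 3.641). A bound for unexpressed genes was set at 4.65, the 95th percentile of the values of 1228 odorant, pheromone and bitter taste receptor genes. The number of arrays, 3 per group, limits the precision of every value below.

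Macrophage genes were higher in LEC than in BEC isolates, with a larger median difference at E16.5 and E18.5 than at E14.5. Over the 3 ages, 33 of the 35 genes were higher in LEC (limma, adjusted p under 0.05), with a median difference of 1.67 over the list, whereas 18.2% of all genes were called higher and the median over all genes was -0.02. At E14.5, 16 of the 35 genes were higher (8.6% of all genes). The count was 33 at E16.5 (13% of all genes) and 32 at E18.5 (14.6% of all genes). The median difference of the list was 0.65, 2.23 and 2.44 at the 3 ages. Whether it grew from E16.5 to E18.5 was not tested, and without LEC E16.5 replicate 2 the E16.5 median was 2.38. At E14.5, all 3 LEC arrays lay above all 3 BEC arrays for 20 of the 35 genes (17.8% of all genes). This held for 31 genes at E16.5 (19.9% of all genes) and for 32 at E18.5 (16.3% of all genes). Trem2 and Marco were not called in any LEC to BEC comparison, and Cd14 was called at E16.5 and over the 3 ages but not at E14.5 or E18.5. Because the comparisons at the 3 ages and the age comparisons use the same arrays, their values are given side by side.

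**Figure D1:**
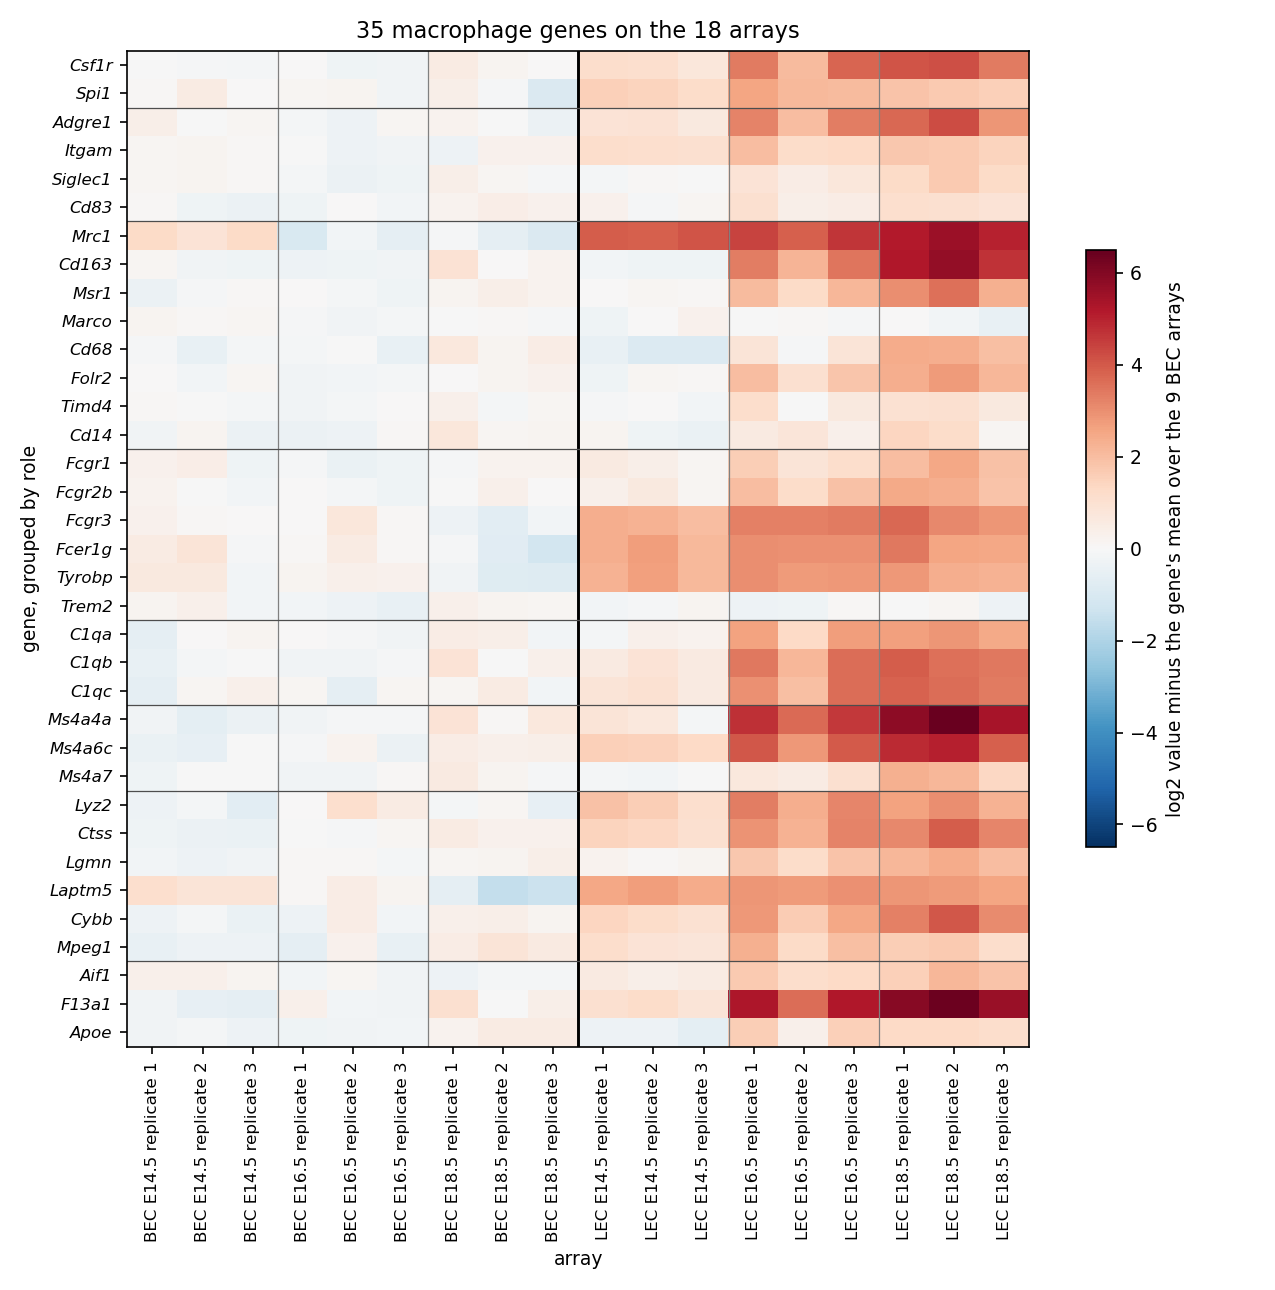
The 35 macrophage genes (rows, grouped by role) on each of the 18 arrays (columns, 3 per group), coloured by the log2 RMA value minus the gene's mean over the 9 BEC arrays, red above and blue below it. LEC columns turn red from E14.5 to E18.5, most deeply for Mrc1, Cd163, Ms4a4a and F13a1, while Trem2 and Marco stay pale on all arrays.

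The list could be parted by the ages at which a gene was called, a description made after the calls were known. The parting does not date the onset of a gene. In 16 genes the LEC level was higher at all 3 ages (Csf1r, Mrc1, Fcgr3, C1qb, Lyz2, Tyrobp, F13a1, Ms4a4a, Ms4a6c, Fcer1g, Itgam, Spi1, Cybb, Laptm5, Mpeg1 and Ctss), with median differences of 1.56, 2.78 and 3.38 from the youngest to the oldest age. In another 16 it was higher at E16.5 and E18.5 but not past the test at E14.5 (Adgre1, Cd68, Cd163, Fcgr1, Fcgr2b, C1qa, C1qc, Aif1, Ms4a7, Folr2, Timd4, Lgmn, Siglec1, Cd83, Msr1 and Apoe), with medians of 0.21, 1.53 and 2.03. Of these, Adgre1, C1qc, Lgmn and Aif1 had every LEC array above every BEC array at E14.5, Aif1 at levels not above background. Cd163, Aif1, Ms4a7, Folr2, Timd4 and Msr1 were below the bound on all LEC and BEC arrays of E14.5, so no difference was measured for them there. In the first set, the E14.5 calls of Csf1r, C1qb and Ms4a4a were lost when certain single arrays were left out.

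**Figure D2:**
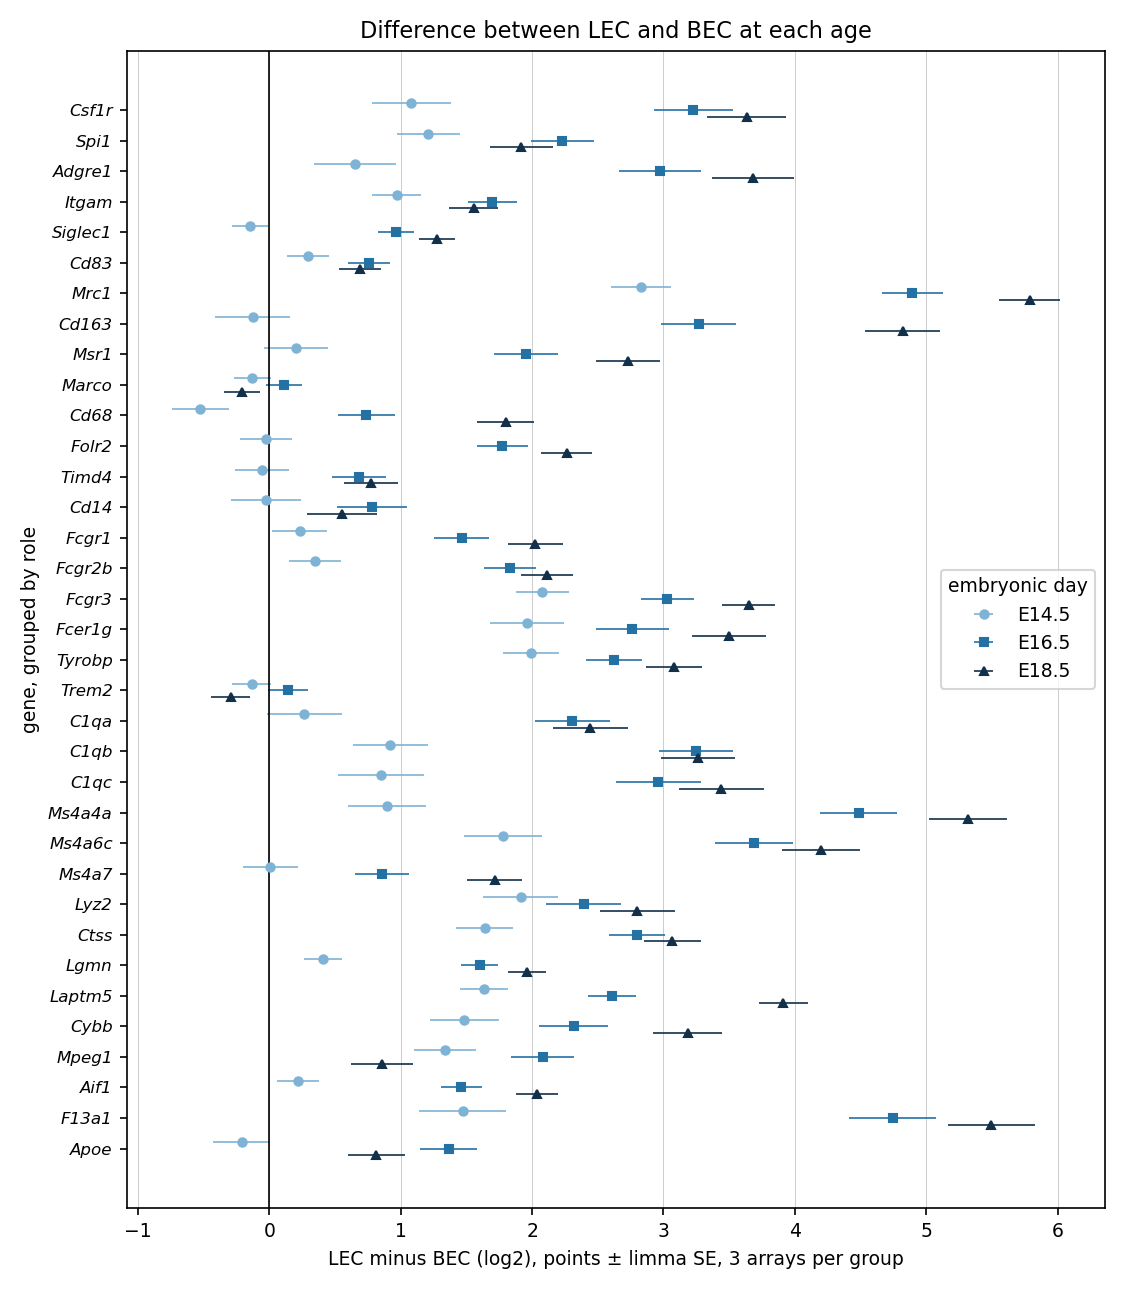
Log2 difference LEC minus BEC for each of the 35 genes (rows) at the 3 ages, with standard errors from the limma fit as bars. Mrc1 is farthest to the right at all 3 ages (2.83, 4.89 and 5.79), and Cd163 moves from -0.13 at E14.5 to 4.82 at E18.5.

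Csf1r, the receptor on which macrophage survival depends, was higher in LEC at every age. Its values in LEC were 6.30, 6.28 and 5.94 at E14.5, 8.54, 7.21 and 8.95 at E16.5, and then 9.27, 9.34 and 8.57 at E18.5. In BEC they stayed between 4.87 and 5.72 on all 9 arrays, below every LEC array. The difference was 1.08 ± 0.30 at E14.5 (adjusted p = 0.016), 3.23 ± 0.30 at E16.5 (adjusted p = 7.2e-08) and 3.63 ± 0.30 at E18.5 (adjusted p = 1.4e-08). The call for Csf1r at E14.5 was lost when any of 3 single arrays was left out (adjusted p 0.053 to 0.061). Spi1, which encodes PU.1, was 6.16, 6.03 and 5.80 in LEC at E14.5, 7.15, 6.70 and 6.65 at E16.5, and then 6.45, 6.31 and 6.12 at E18.5. All LEC arrays of Spi1 were above all BEC arrays, which ranged from 3.66 to 5.10. Its differences were 1.21 ± 0.24, 2.23 ± 0.24 and 1.92 ± 0.24 at the 3 ages (adjusted p = 0.00094, 4.8e-07 and 3.4e-06). Unlike for Csf1r, the change of Spi1 in LEC from E14.5 to E18.5, 0.30 ± 0.24, did not pass the test (adjusted p = 0.35). The ligands of CSF1R ran the other way: Csf1 and Il34 were both lower in LEC than in BEC over the 3 ages, by -0.48 ± 0.09 and -0.33 ± 0.11 (adjusted p = 0.00028 and 0.026).

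Scavenger and endocytic receptors take up modified lipoproteins, haemoglobin, mannose-bearing proteins and dying cells. Mrc1, the mannose receptor, had the largest LEC to BEC difference of the list at each age. Its LEC values were 9.89, 9.82 and 10.04 at E14.5, 10.34, 9.83 and 10.58 at E16.5, and then 11.10, 11.53 and 10.97 at E18.5. Its BEC values were 7.21, 6.87 and 7.18 at E14.5, 4.94, 5.79 and 5.34 at E16.5, and then 5.87, 5.36 and 5.01 at E18.5. The gap therefore widened from both sides, and no LEC array overlapped a BEC array. The difference was 2.83 ± 0.23, 4.89 ± 0.23 and 5.79 ± 0.23 at the 3 ages, the last a 55.3-fold difference (adjusted p = 2.3e-08, 8.2e-12 and 8.1e-13).

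Cd163, the haemoglobin scavenger receptor, went from below the bound for unexpressed genes to a bright signal in LEC. Its LEC values were 3.86, 3.74 and 3.74 at E14.5, all below that bound, then 7.35, 6.26 and 7.50 at E16.5 and later 9.25, 9.76 and 8.74 at E18.5. BEC values were 3.75 to 4.17 at E14.5, 3.72 to 3.81 at E16.5, and then 4.97, 4.03 and 4.28 at E18.5. At E14.5 the groups overlapped (-0.13 ± 0.28, adjusted p = 0.87), and at the later ages they were far apart, with differences of 3.27 ± 0.28 and 4.82 ± 0.28 (adjusted p = 2.7e-08 and 1.2e-10). Set against the bound instead of the level measured at E14.5, Cd163 in LEC was at least 5.21-fold higher at E16.5 and at least 24.2-fold higher at E18.5.

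Msr1 (scavenger receptor A), Folr2 (folate receptor beta) and Timd4 (a receptor for phosphatidylserine on dying cells) started in LEC below the same bound at E14.5. Msr1 rose from 3.60, 3.73 and 3.69 to 5.67, 4.85 and 5.74 and then to 6.61, 7.18 and 5.92, and its difference from BEC was 1.95 ± 0.24 at E16.5 and 2.73 ± 0.24 at E18.5 (adjusted p = 3.5e-06 and 3.8e-08). Folr2 rose from 3.95, 4.35 and 4.32 to 6.26, 5.27 and 6.02 and to 6.61, 6.99 and 6.42, with differences of 1.77 ± 0.20 and 2.26 ± 0.20 (adjusted p = 6.9e-07 and 2.5e-08). In BEC, all 9 values of both genes remained below the bound. Timd4 stayed dim: its LEC values at E18.5 were 5.18, 5.24 and 4.82, against 4.53, 4.07 and 4.33 in BEC, and the difference was 0.77 ± 0.21 (adjusted p = 0.0071). That call was lost with array weights (adjusted p 0.052), and the Timd4 call at E16.5 was lost without any of 4 single arrays.

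Cd68, a lysosomal glycoprotein, was well expressed in BEC too, at 7.14, 6.74 and 7.08 at E14.5, 7.11, 7.20 and 6.72 at E16.5, and then 7.92, 7.42 and 7.68 at E18.5. In LEC it was 6.72, 6.33 and 6.32 at E14.5, below every BEC array of that age, then 8.04, 7.15 and 8.05, and then 9.64, 9.60 and 9.17, above every BEC array. Its difference went from -0.52 ± 0.22 (adjusted p = 0.13) to 0.74 ± 0.22 (adjusted p = 0.016) and 1.80 ± 0.22 (adjusted p = 2.3e-06). The E16.5 call of Cd68 was lost when only the compared groups were fitted (adjusted p 0.06) and without any of 3 single arrays (adjusted p 0.089 to 0.092). The E14.5 value of Cd68 passed the test, as lower in LEC, when each array was weighted (adjusted p 0.025) or when only the E14.5 arrays were fitted (adjusted p 0.022). Cd14, the co-receptor for bacterial lipopolysaccharide, was 5.98, 5.76 and 4.72 in LEC and 5.34, 4.70 and 4.76 in BEC at E18.5, and these groups overlapped (0.56 ± 0.27, adjusted p = 0.13). Its call over the 3 ages, 0.44 ± 0.15 (adjusted p = 0.031), was lost without any of 10 single arrays (adjusted p 0.054 to 0.072), and its call at E16.5, 0.78, without any of 4 (adjusted p 0.091 to 0.13). Cd14 was below the bound on all BEC E16.5 arrays, so its E16.5 difference is known only as at least 0.49. Marco, a scavenger receptor of marginal zone and alveolar macrophages, lay between 3.92 and 4.72 on all 18 arrays, below the bound on all but 1 of them, and did not pass a filter on dim genes. Its difference over the 3 ages was -0.08 ± 0.08.

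Among the surface molecules, Adgre1, which encodes a surface receptor long used as a marker of mouse macrophages, was 5.17, 5.22 and 4.92 in LEC at E14.5, 7.49, 6.30 and 7.62 at E16.5, and then 8.04, 8.53 and 7.14 at E18.5. In BEC its values were 3.88 to 4.66 on the 9 arrays, below every LEC array. The difference of 0.65 ± 0.31 at E14.5 did not pass the test (adjusted p = 0.2), and those of 2.97 ± 0.31 and 3.68 ± 0.31 at the later ages did (adjusted p = 3.5e-07 and 1.9e-08). All BEC arrays of Adgre1 were below the bound at these later ages, so its differences there are known only as at least 2.49 and at least 3.25. Itgam, the alpha chain of the complement receptor 3 integrin (CD11b), was higher in LEC at every age by 0.97 ± 0.19, 1.70 ± 0.19 and 1.56 ± 0.19 (adjusted p = 0.00073, 6.8e-07 and 2.1e-06). It was below the bound on all BEC arrays, so these differences are known only as at least 0.62, 1.03 and 1.16. Siglec1, a sialic acid-binding lectin (CD169), was 6.66, 7.11 and 6.66 in LEC and 5.76, 5.53 and 5.32 in BEC at E18.5 (1.27 ± 0.14, adjusted p = 4.9e-07). Cd83, an immunoglobulin-family molecule of antigen-presenting cells, was 6.14, 6.12 and 5.95 in LEC and 5.29, 5.50 and 5.35 in BEC at E18.5 (0.69 ± 0.16, adjusted p = 0.0026). Siglec1 and Cd83 thus had differences below the list's median at that age, with LEC and BEC arrays apart.

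Fc receptors bind antibody complexes and signal through adaptors that carry an activation motif (ITAM). The adaptors Fcer1g and Tyrobp were bright in LEC already at E14.5, at 9.79, 10.13 and 9.55 for Fcer1g and at 8.14, 8.53 and 7.97 for Tyrobp. At E18.5 Fcer1g was 10.85, 9.97 and 9.94 in LEC and 7.36, 6.67 and 6.22 in BEC, and Tyrobp was 8.66, 8.19 and 8.09 in LEC and 5.62, 5.07 and 5.02 in BEC. For both adaptors every LEC array lay above every BEC array, and in LEC neither changed past the test from E14.5 to E18.5 (0.43 ± 0.28 and 0.10 ± 0.21). Fcgr3, a low-affinity receptor for immunoglobulin G, was 7.04, 6.91 and 6.67 in LEC at E14.5, 7.91, 7.92 and 8.05 at E16.5, and then 8.40, 7.79 and 7.52 at E18.5. Its difference from BEC was 2.08 ± 0.20, 3.03 ± 0.20 and 3.65 ± 0.20 (adjusted p = 2.5e-07, 7.4e-10 and 5.8e-11). All BEC E18.5 arrays of Fcgr3 were below the bound, so the last value is known only as at least 3.25. Fcgr1, the high-affinity receptor, and Fcgr2b, the inhibitory receptor, had no call at E14.5 (0.23 ± 0.21 and 0.35 ± 0.20) and were higher in LEC at E18.5 by 2.02 ± 0.21 and 2.11 ± 0.20 (adjusted p = 2.9e-07 and 7.5e-08). The ITAM-linked receptor gene Trem2, known from lipid-handling macrophages and microglia, stood apart: its LEC values of 5.52, 5.61 and 5.86 at E14.5 and 5.68, 5.80 and 5.36 at E18.5 overlapped or lay below those of BEC (5.87, 6.0002 and 5.52, and 6.01, 5.87 and 5.84). The Trem2 difference over the 3 ages was -0.09 ± 0.09 (adjusted p = 0.44).

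C1qa, C1qb and C1qc encode the chains of complement component C1q and lie side by side in the genome. They rose in LEC by nearly the same amount from E14.5 to E16.5: 2.06 ± 0.29 for C1qa, 2.36 ± 0.28 for C1qb and 2.03 ± 0.32 for C1qc (adjusted p = 7.9e-05, 1.9e-05 and 0.00031). In LEC, C1qb was 4.98, 5.27 and 4.98 at E14.5, 7.82, 6.51 and 8.002 at E16.5, and then 8.32, 7.96 and 7.83 at E18.5. From E16.5 to E18.5 their changes in LEC, 0.45 to 0.76, did not pass the test (adjusted p = 0.078 to 0.23). At E14.5, C1qb was the only chain called higher in LEC than in BEC (0.92 ± 0.28, adjusted p = 0.03), and leaving out any of 5 single arrays ended that call (adjusted p 0.058 to 0.13). The BEC E14.5 arrays of C1qb were all below the bound, so this difference is known only as at least 0.43.

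The MS4A genes encode a family of small membrane proteins with several transmembrane segments. Ms4a4a rose in LEC from 5.17, 5.002 and 4.22 at E14.5 to 9.08, 8.02 and 8.91 at E16.5 and then to 10.14, 10.76 and 9.66 at E18.5. In BEC it was 4.10, 3.68 and 3.93 at E14.5 and 5.20, 4.42 and 4.995 at E18.5, so no BEC array reached the lowest LEC array of the later ages. The difference from BEC was 0.89 ± 0.30 (adjusted p = 0.044), 4.48 ± 0.30 (adjusted p = 6.1e-10) and 5.32 ± 0.30 (adjusted p = 5.8e-11), and the E14.5 call was lost without any of 5 single arrays (adjusted p up to 0.21). All BEC arrays of Ms4a4a were below the bound at E14.5 and E16.5. Set against the bound, its differences at these ages were at least 0.14 and at least 4.02. Already at E14.5, Ms4a6c was higher in LEC (1.78 ± 0.30, adjusted p = 0.00017) and it reached 8.86, 9.06 and 7.86 there at E18.5, at least 15.3-fold above BEC. Set against the bound, its E14.5 difference was at least 0.79. Ms4a7 was the dimmest gene of the family, with 2.90, 2.83 and 2.96 in LEC at E14.5 and 5.30, 5.17 and 4.34 at E18.5 (E18.5 difference from BEC 1.72 ± 0.21, adjusted p = 2.3e-06), and all its BEC values were below the bound.

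Lysosomal and killing proteins break down what macrophages take up. All 6 were higher in LEC over the 3 ages, and 5 of them already at E14.5. Ctss (cathepsin S) was 7.38, 7.27 and 6.97 in LEC at E14.5, 8.88, 8.21 and 9.19 at E16.5, and then 9.09, 9.90 and 9.14 at E18.5, against 5.50 to 6.46 over all BEC arrays. Lgmn (legumain, another lysosomal protease) was 8.50, 8.36 and 8.47 in LEC and 8.08, 7.98 and 8.05 in BEC at E14.5 (0.41 ± 0.14, adjusted p = 0.061), and 10.46, 10.69 and 10.28 against 8.41, 8.48 and 8.66 at E18.5 (1.96 ± 0.14, adjusted p = 2.5e-09). Lgmn was thus also well above the bound in BEC. Lyz2, the lysozyme of myeloid cells, differed by 1.91 ± 0.29, 2.39 ± 0.29 and 2.80 ± 0.29 (adjusted p = 5.1e-05, 2.1e-06 and 2.5e-07). Cybb, the catalytic subunit of the phagocyte oxidase, rose in LEC from 6.04, 5.85 and 5.62 at E14.5 to 7.93, 8.68 and 7.72 at E18.5 (2.28 ± 0.26, adjusted p = 1.3e-06). Mpeg1, which encodes the pore-forming protein perforin-2, had differences of 1.34 ± 0.24, 2.08 ± 0.24 and 0.86 ± 0.24 at the 3 ages, the last lost with array weights (adjusted p 0.056). It rose in BEC from 3.71, 3.83 and 3.84 at E14.5 to 4.68, 5.01 and 4.76 at E18.5 (1.02 ± 0.24, adjusted p = 0.0026). All BEC arrays of Mpeg1 were below the bound at E14.5 and E16.5. Set against the bound, its differences at these ages were at least 0.47 and at least 1.35, and its rise in BEC was at least 0.16. Laptm5, a lysosomal membrane protein of blood cells, stayed high in LEC, between 10.50 and 11.05 on all 9 arrays. In BEC it fell from 9.17, 8.90 and 8.92 to 8.16, 8.57 and 8.26 and to 7.47, 6.52 and 6.67.

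F13a1, the A subunit of coagulation factor XIII, became among the brightest genes of the list in LEC. Its values rose there from 6.69, 6.82 and 6.47 at E14.5 to 10.91, 9.28 and 10.84 at E16.5 and then to 11.55, 12.00 and 11.24 at E18.5. BEC held 5.06 to 5.38, 5.41 to 5.94 and 5.62 to 6.66. The differences of F13a1 were 1.47 ± 0.33, 4.75 ± 0.33 and 5.50 ± 0.33 (adjusted p = 0.003, 1.3e-09 and 1.7e-10), the last a 45.1-fold difference. Aif1, which encodes the calcium-binding protein IBA1, was 5.55, 6.18 and 5.86 in LEC and 3.68, 3.88 and 3.91 in BEC at E18.5 (2.04 ± 0.16, adjusted p = 6.1e-09). These BEC values were below the bound, so the difference is known only as at least 1.21. Apoe, the lipid-carrying apolipoprotein E, was bright in both cell types: 8.17, 8.15 and 7.84 in LEC and 8.27, 8.34 and 8.18 in BEC at E14.5, and 9.80, 9.80 and 9.61 against 8.74, 8.997 and 9.03 at E18.5. Its difference was -0.21 ± 0.22, 1.37 ± 0.22 and 0.82 ± 0.22 at the 3 ages, the last lost with array weights (adjusted p 0.053).

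**Figure D3:**
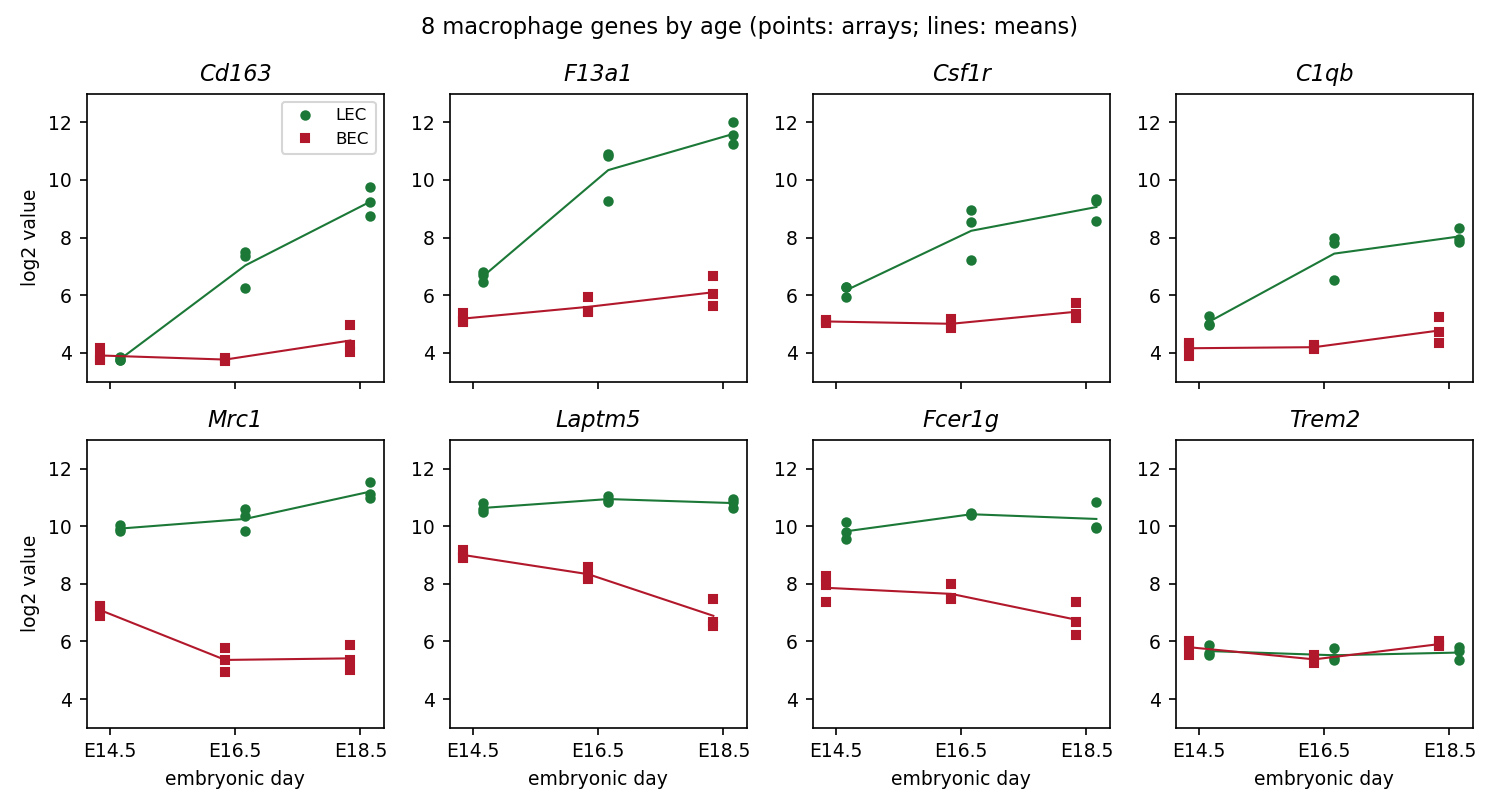
Log2 RMA values of 8 members by embryonic day in LEC (green circles) and BEC (red squares), with each of the 3 arrays per group as a point and lines through the group means. Cd163 and F13a1 climb in LEC between E14.5 and E18.5 (by 5.47 and 4.94), Laptm5 and Mrc1 decline in BEC (by -2.11 and -1.68), and Trem2 lies at a similar level in both cell types.

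With age, most of the macrophage genes rose in LEC, and those called in BEC moved in both directions. From E14.5 to E16.5, 27 of the 35 genes rose in LEC (8.07% of all genes), with a median change of 1.11, beside -0.03 over all genes. In BEC over the same interval only Lyz2 passed the test as higher (5.1% of all genes) and only Mrc1 and Laptm5 as lower (4.66% of all genes). From E16.5 to E18.5, 16 genes rose in LEC (15.9% of all genes), with a median change of 0.58 (0.05 over all genes). Without LEC E16.5 replicate 2, 12 rose and 1 fell over this interval, and the median was 0.31. Among the 16, Cd163 rose by a further 2.21 ± 0.28 and Cd68 by 1.73 ± 0.22 (adjusted p = 1.4e-05 and 1.2e-05). Over the whole span from E14.5 to E18.5, 28 genes rose in LEC (19.7% of all genes), with a median of 1.77, with the highest measured values in Cd163 (5.47 ± 0.28), Ms4a4a (5.39 ± 0.30) and F13a1 (4.94 ± 0.33). The 7 that did not pass the test were Tyrobp, Fcer1g, Trem2, Spi1, Laptm5, Mpeg1 and Marco. Since Cd163 began below the bound, its rise is known only as at least 4.59, and its order relative to Ms4a4a and F13a1 is not settled. Ms4a7 was below the bound on all LEC and BEC arrays of E14.5 and E16.5, so its calls within those ages, for LEC against BEC and for the change in LEC, compare levels not above background. Keratinocyte genes also rose in LEC over the whole span, 5 of 6 of them with a median of 1.98, and the mean over that list went from 5.64 to 5.76 on the E14.5 arrays to 7.23 to 7.74 on the E18.5 arrays. From E14.5 to E16.5 none of the 6 was called in LEC (median 0.06). The mean over that list was 5.33 to 6.36 on the E16.5 arrays and highest in replicate 3, where Krt5 was 8.29, against 6.43 and 6.33. The part of keratinocyte RNA in the later changes of the macrophage genes was not tested.

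In BEC, 6 of the 35 genes rose from E16.5 to E18.5 (15.8% of all genes) and 4 fell (16.4% of all genes), shares close to those of all genes. With the arrays set to a common median these counts were 2 and 5, and after quantile normalization 4 and 4. From E14.5 to E18.5, 8 rose (13.3% of all genes): Cd68, F13a1, Ms4a4a, Mpeg1, Ctss, Lgmn, Cd83 and Apoe, by 0.48 to 1.02. Ms4a4a and Mpeg1 were below the bound on all BEC E14.5 arrays, so their rises are known only as at least 0.22 and at least 0.16. Another 5 fell (17.3% of all genes): Laptm5 by -2.11 ± 0.18, Mrc1 by -1.68 ± 0.23, Fcer1g by -1.11 ± 0.28, Tyrobp by -0.99 ± 0.21 and Aif1 by -0.48 ± 0.16. Aif1 was below the bound on all BEC arrays of both ages, so its value compares levels not above background. Over the same span in BEC, 8 of 9 lymphatic endothelial genes fell (median -1.75), 6 of 9 mast cell genes fell and 1 rose (median -0.90), and 3 of 6 pan-leukocyte genes fell (median -0.62). All 5 mural cell genes rose (median 2.22), with the list's mean going from 5.78 to 5.98 on the E14.5 arrays to 8.46 to 8.67 on the E18.5 arrays. Of the keratinocyte genes 4 of 6 rose (median 0.74), with a mean of 5.16 to 5.27 and then of 5.86 to 6.28. The part of these other RNAs in the rise and decline of macrophage genes in BEC was not tested. The BEC counts rest on few arrays: without BEC E14.5 replicate 2, 7 rather than 13 genes changed from E14.5 to E18.5.

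The change with age differed between LEC and BEC when tested as an interaction. For E14.5 to E16.5, the change in LEC minus that in BEC was positive and called for 20 of the 35 genes (1.89% of all genes), with a median of 1.19 over the list. For E14.5 to E18.5 this held for 26 genes (5.02% of all genes), with a median of 1.71. The highest measured values were those of Ms4a4a (3.59 ± 0.42), Cd163 (3.40 ± 0.40) and F13a1 (3.28 ± 0.47) for the first interval. For the whole span they were those of Cd163 (4.95 ± 0.40), Ms4a4a (4.42 ± 0.42) and F13a1 (4.03 ± 0.47; adjusted p = 2.7e-07, 1.5e-06 and 1.6e-05). Mrc1 had 2.96 ± 0.33 (adjusted p = 9.8e-06) and Laptm5 2.28 ± 0.26 (adjusted p = 1.3e-05), both with a fall in BEC. For Tyrobp, Fcer1g and Laptm5 the fall in BEC (-0.99, -1.11 and -2.11) made up most of the value, since their changes in LEC (0.10, 0.43 and 0.17) did not pass the test, and the same holds for Mrc1 from E14.5 to E16.5 (-1.73 in BEC, 0.34 in LEC). Cd163 was below the bound on all E14.5 arrays of both cell types and Ms4a4a on those of BEC, so the order of these values is not settled. Some calls rested on single arrays: for E14.5 to E16.5, Ctss lost its call in 13 settings (11 of them with 1 array left out) and Cd68 and Fcgr1 in 9 each, and for E14.5 to E18.5, Apoe lost it in 14 and Tyrobp in 9. Spi1, Itgam, Lyz2, Cd83, Timd4, Cd14, Mpeg1, Trem2 and Marco were the 9 genes whose difference over the whole span did not pass the test.

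Within LEC, the genes also varied together from array to array. In LEC E16.5 replicate 2, 30 of the 35 genes were at their lowest of the 3 arrays, where 40.3% of all genes were, and their median lay -0.83 from the mean of the other 2 arrays (all genes -0.03). The gap was widest for F13a1 (-1.59), Csf1r (-1.54), C1qb (-1.40), C1qa (-1.36) and C1qc (-1.36). It was small for Fcgr3 (-0.06), Fcer1g (-0.06), Tyrobp (-0.14) and Laptm5 (-0.14), and Cd14 lay above the other arrays (0.34). The mean over the 35 genes was 7.49, 6.75 and 7.43 on the 3 LEC E16.5 arrays. On the same arrays the mast cell mean was 9.78, 9.79 and 9.76, the pan-leukocyte mean 8.49, 8.43 and 8.42, and the lymphatic endothelial mean lay between 10.88 and 10.95, so these lists did not show the dip. Without that array, 32 genes were higher in LEC than in BEC at E16.5, and the median difference was 2.38.

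In LEC E18.5 replicate 3, 33 of the 35 genes were lowest (26.2% of all genes), with a median of -0.40 from the other 2 arrays. There the pan-leukocyte list (6 of 6 genes below, median -0.40) and the mast cell list (8 of 9 below, median -0.20) were low as well. The keratinocyte mean was the highest of the group on that array (7.74, with 7.23 the lowest), though Epcam and Krt10 were not at their highest. In LEC E14.5 replicate 3, 24 genes were lowest (33.5% of all genes), by a median of -0.21, beside 9 of 9 mast cell genes (median -0.43) and 6 of 6 pan-leukocyte genes (median -0.43). The part of cell composition in this variation was not tested. In BEC the mean over the 35 genes ran from 5.05 to 5.14, from 4.99 to 5.09 and from 5.09 to 5.37 at the 3 ages, narrower than in LEC of the same age. Of the 35 genes, 14, 17 and 10 were below the bound on all BEC arrays of these ages, against 6, 2 and 1 in LEC, which limits this comparison. The highest BEC mean, 5.37, belonged to E18.5 replicate 1, where 20 of the 35 genes were highest (29.1% of all genes). The mast cell mean (7.30, with 5.82 the lowest of the group) and the pan-leukocyte mean (5.67, with 5.20 the lowest) were highest on that array as well.

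**Figure D4:**
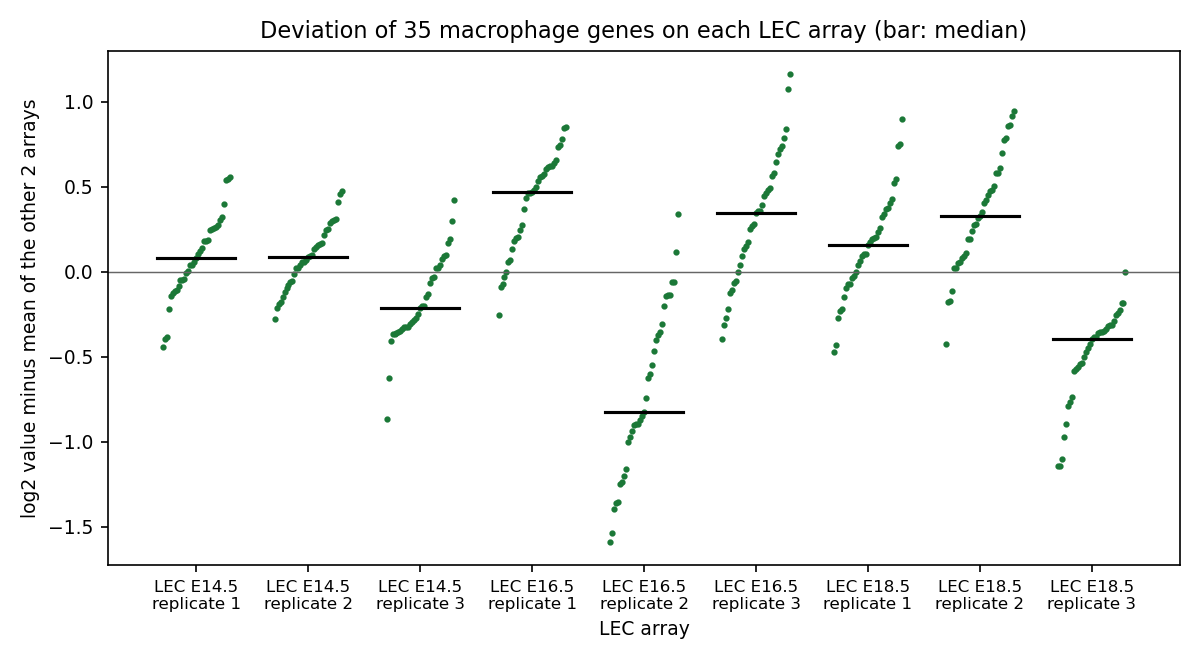
Log2 value of each of the 35 macrophage genes (points, sorted within each array) minus its mean on the other 2 arrays of the group, for the 9 LEC arrays, with the median as a bar. The median is -0.83 in E16.5 replicate 2 and -0.40 in E18.5 replicate 3.

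**Figure D5:**
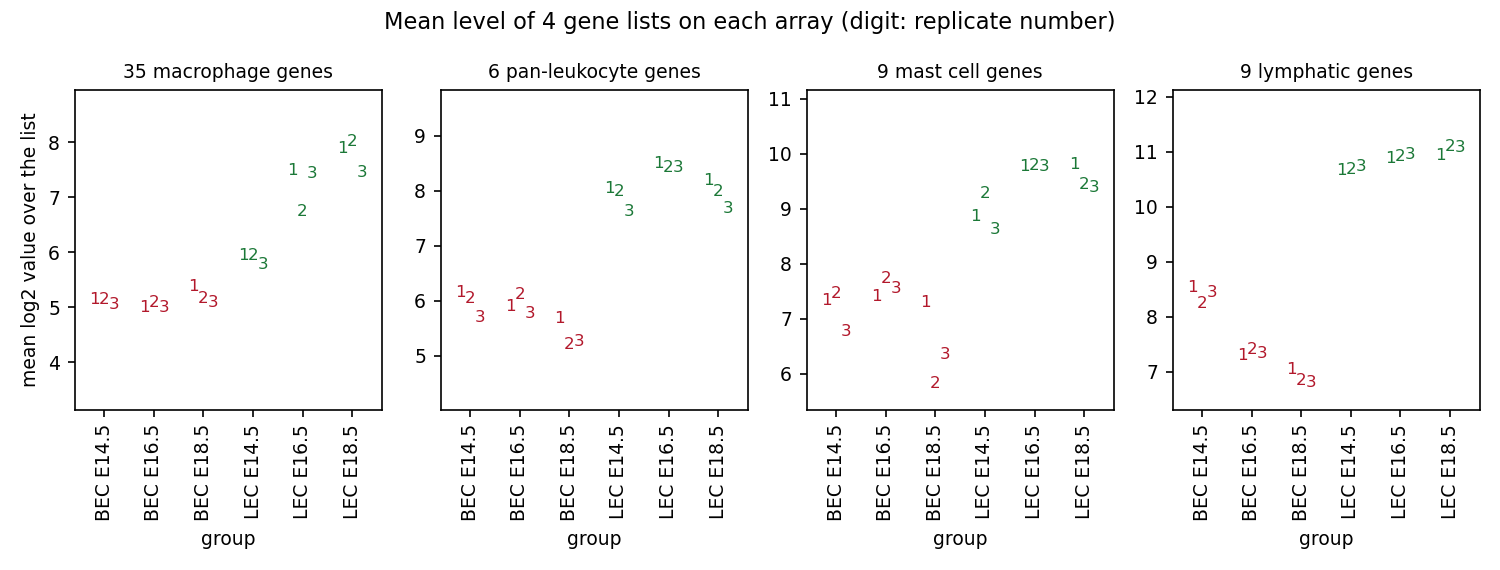
Mean log2 value over the macrophage, pan-leukocyte, mast cell and lymphatic endothelial lists on each array, by group, with the array drawn as its replicate number (green LEC, red BEC); each panel has its own range of equal height. In LEC the macrophage mean lies at 5.77 to 5.95 at E14.5 and 7.44 to 8.01 at E18.5, while the pan-leukocyte mean is 7.62 to 8.04 and 7.68 to 8.20 at these ages.

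Other genes of phagocytes were described from 9 lists. Of the partners of the phagocyte oxidase, 4 of 4 were higher in LEC over the 3 ages, from Ncf4 (0.43 ± 0.11) to Rac2 (2.77 ± 0.12), and of 7 myeloid transcription factors 6 were, led by Ikzf1 (2.38 ± 0.10). The list of 7 signalling genes downstream of ITAM receptors held phosphatases and an exchange factor beside kinases and adaptors. Of these 7, 5 were higher, led by the adaptor gene Lcp2 (2.92 ± 0.15), and 2 were lower, the kinase genes Syk (-0.40 ± 0.08) and Fgr (-0.39 ± 0.08). The leukocyte integrins and actin regulators had 7 of 9 higher. Of the Toll-like receptors and co-receptors, 9 of 10 were higher, led by Ly86 (2.51 ± 0.15), and Tlr4, also known in blood endothelium, was lower (-1.22 ± 0.19). All 6 chemoattractant receptors and all 7 C-type lectins were higher, and 4 of 5 genes of MHC class II presentation, led by Cd74 (1.15 ± 0.13). The lectins were dim: all 7 were below the bound on every BEC array, and Clec12a was below it on all 18 arrays, as was H2-Aa of the MHC class II list, so the calls of these 2 genes compare levels not above background. Of all genes, 18.2% were called higher and 19% lower in this comparison.

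These lists separated with age in LEC. From E14.5 to E18.5, 19.7% of all genes were called higher in LEC and 21.2% lower. Of the Toll-like receptor genes 10 of 10 rose (median 1.09), among them Ly86 by 2.54 ± 0.25, and 6 of the 10 began below the bound. Tlr8 was still at 4.05, 4.83 and 3.89 on the LEC E18.5 arrays, above the bound on replicate 2 alone, so its rise compares levels near background. Of the C-type lectins 5 of 7 rose (median 1.78), all 5 from below the bound. Among them, 1 (Clec4a2) was still below it on all LEC E18.5 arrays, so its rise compares levels not above background. Set against the bound, Tlr7 was at least 1.29-fold higher at E18.5 than at E14.5, Clec4a1 at least 4.35-fold and Clec4n at least 2.31-fold. The chemoattractant receptors moved in opposite directions. C3ar1 and C5ar1, receptors of complement fragments, rose by 2.91 ± 0.30 and 2.50 ± 0.22, whereas Cx3cr1, the fractalkine receptor, fell by -1.16 ± 0.18 and Ccr2, a receptor of monocytes, by -0.74 ± 0.20 (adjusted p = 3.7e-05 and 0.0069). Cx3cr1 in LEC went from a mean of 8.39 ± 0.18 (SD, n = 3) at E14.5 to 7.23 ± 0.30 (SD, n = 3) at E18.5. Among the myeloid transcription factors, Ikzf1 fell by -1.39 ± 0.17, Nr1h3 fell by -0.50 ± 0.16 and Runx1 rose by 0.42 ± 0.13. Of the actin regulators, Coro1a fell by -1.87 ± 0.15 and Plek rose by 1.89 ± 0.24. Of the MHC class II genes, 1 of 5 changed past the test (H2-Ab1, -0.46 ± 0.18), and the 2 ligands of CSF1R gave 1 rise (Csf1, 1.25 ± 0.16).

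The genes whose values over the 18 arrays most resembled the mean of the list were C3ar1 (Pearson r 0.991), Ms4a6d (0.983), Clec4a1 (0.981), Ptprj (0.980), Ly86 (0.979) and Ms4a6b (0.978), followed by Gxylt2, Mfsd4a, Il6ra and Lypd6 (0.973 to 0.976). Predicted genes, RIKEN clones and some gene families were passed over in this ranking. The 18 arrays share 6 group means, so these correlations describe the pattern over groups. Within the list, Csf1r was most like the mean of the other members (0.993), and Trem2 (-0.120) and Marco (-0.317) were least like it. Mean values of C3ar1 were 4.48, 4.56 and 4.58 in BEC and 5.62, 7.61 and 8.53 in LEC at the 3 ages.

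Promoter windows of 250 bases before to 50 bases after the annotated start were given by RefSeq (GRCm38.p6) for 26 of the 35 genes, in 33 windows. They were searched on both strands for GAGGAA, the purine-rich core bound by PU.1, whose gene Spi1 was itself higher in LEC at every age. GAGGAA was found in the windows of 16 of the 26 genes (61.54%), against 31.25% of 27025 genes. The longer form GAGGAAGT, which contains GAGGAA, was found in 3 (11.54%, against 3.69% of all genes), and the AP-1 motif TGANTCA in 5 (19.23%, against 8.97%). The window of Mrc1 is shown because it had the largest LEC to BEC difference, and those of F13a1, C1qc and Ctss because they hold the longer form; all run 5′ to 3′ on the gene's strand, and capitals mark the core motif GAGGAA, which reads TTCCTC where it lies on the opposite strand. The windows are chr2:14229164-14229463 (plus strand) for Mrc1, chr13:37049164-37049463 (minus strand) for F13a1, chr4:136892865-136893164 (minus strand) for C1qc and chr3:95526536-95526835 (plus strand) for Ctss.
Mrc1: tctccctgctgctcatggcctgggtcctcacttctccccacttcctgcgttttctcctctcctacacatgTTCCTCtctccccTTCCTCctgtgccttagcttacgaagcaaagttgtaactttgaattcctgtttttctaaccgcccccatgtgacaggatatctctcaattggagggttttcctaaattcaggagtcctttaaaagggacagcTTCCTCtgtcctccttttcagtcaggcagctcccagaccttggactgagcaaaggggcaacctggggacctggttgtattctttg
F13a1: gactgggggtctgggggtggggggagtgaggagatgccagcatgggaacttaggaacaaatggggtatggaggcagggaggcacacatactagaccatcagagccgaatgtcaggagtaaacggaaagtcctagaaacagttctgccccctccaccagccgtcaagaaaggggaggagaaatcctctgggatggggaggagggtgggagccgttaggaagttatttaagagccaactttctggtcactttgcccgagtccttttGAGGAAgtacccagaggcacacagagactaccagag
C1qc: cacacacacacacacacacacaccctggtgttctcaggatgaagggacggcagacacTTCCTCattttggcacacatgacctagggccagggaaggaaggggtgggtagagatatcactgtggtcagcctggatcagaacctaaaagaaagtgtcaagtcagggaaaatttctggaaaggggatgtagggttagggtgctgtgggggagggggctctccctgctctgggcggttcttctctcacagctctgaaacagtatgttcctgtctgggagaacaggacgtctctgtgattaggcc
Ctss: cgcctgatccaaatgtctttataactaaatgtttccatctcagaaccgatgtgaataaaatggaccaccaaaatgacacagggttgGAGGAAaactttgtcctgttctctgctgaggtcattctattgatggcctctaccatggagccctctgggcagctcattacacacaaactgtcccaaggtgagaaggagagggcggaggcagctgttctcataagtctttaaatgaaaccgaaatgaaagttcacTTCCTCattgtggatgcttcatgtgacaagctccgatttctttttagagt
Counted from the start at 0, the matches begin at -180, -167 and -35 in Mrc1, all on the opposite strand, at 14 in F13a1, at -193 in C1qc and at -164 and 0 in Ctss. F13a1 had another annotated window (chr13:37050195-37050494, minus strand), not shown, with GAGGAA at -66 and 17 and without the longer form. A match describes the letters of the window; binding was not measured.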

How the data were processed

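The deposited values are log2 intensities, which the authors made with RMA in oligo 1.54.1, per the submitters' processing notes; they were used without further scaling. Of 35556 probe sets, 21789 carried a single gene symbol in the platform annotation, and the brightest was taken for each of 19938 genes. limma 3.58.1 (R 4.3.3) was fitted to all genes with 6 group means, and p-values were adjusted over all genes by the Benjamini-Hochberg method for each of 12 contrasts. Genes named by rule are the 35 members, the members of largest and smallest absolute difference in each other list, and the 10 other genes with the highest Pearson r to the members' mean; further genes of those lists, such as Cx3cr1, Ccr2, Coro1a, Plek and Pf4, were named after their values were seen. The members and lists were chosen with earlier results of these data known. The labels call the replicates biological. The design text gives matching litters for LEC and BEC but does not say that a replicate number marks a litter. Alternatives were a common median, a filter on dim genes, limma-trend, array weights, only the groups compared, the mean of a gene's probe sets, a replicate block, the E18.5 arrays left out, quantile normalization, and each array left out. The fit was tested on simulated data. A fold given as at least a value sets the brighter group's mean against the bound of 4.65.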

Additional observations from a re-analysis of the deposited data

Results flagged for a closer look

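Each result here drew attention because a gene's change with age differed between LEC and BEC by the interaction term of the limma fit (adjusted p under 0.05); values are the change in LEC minus the change in BEC on the log2 scale. From E14.5 to E16.5 this held for 20 of the 35 genes: Ms4a4a (3.59), Cd163 (3.40), F13a1 (3.28), C1qb (2.33), Adgre1 (2.32), Csf1r (2.15), C1qc (2.11), Mrc1 (2.07), C1qa (2.04), Ms4a6c (1.91), Folr2 (1.80), Msr1 (1.75), Apoe (1.58), Fcgr2b (1.48), Cd68 (1.26), Aif1 (1.25), Fcgr1 (1.23), Lgmn (1.19), Ctss (1.16) and Siglec1 (1.11). From E14.5 to E18.5 it held for 26: Cd163 (4.95), Ms4a4a (4.42), F13a1 (4.03), Adgre1 (3.03), Mrc1 (2.96), C1qc (2.59), Csf1r (2.55), Msr1 (2.53), Ms4a6c (2.42), C1qb (2.34), Cd68 (2.32), Folr2 (2.29), Laptm5 (2.28), C1qa (2.18), Aif1 (1.82), Fcgr1 (1.79), Fcgr2b (1.77), Ms4a7 (1.71), Cybb (1.70), Fcgr3 (1.57), Lgmn (1.55), Fcer1g (1.536), Ctss (1.43), Siglec1 (1.42), Tyrobp (1.09) and Apoe (1.03). All these values are positive, and the genes of the first set also appear in the second. Mrc1, Laptm5, Fcer1g and Tyrobp fell in BEC from E14.5 to E18.5 (by -1.68, -2.11, -1.11 and -0.99), and for Laptm5, Fcer1g and Tyrobp this makes up most of the value (changes in LEC 0.17, 0.43 and 0.10). Aif1 was also called lower in BEC (-0.48), between levels not above background. Aif1, Msr1, Folr2 and Ms4a7 were below the bound on all BEC arrays and all LEC E14.5 arrays, so their values are set against background. In the first set the calls of Ctss, Cd68 and Fcgr1 were lost in 13, 9 and 9 settings, and in the second those of Apoe and Tyrobp in 14 and 9.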

How the results depend on the processing

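Of the 12 counts of macrophage genes called, 9 stayed within 1.5 times the main count under every alternative run, the array left out included; the other 3 are all changes within BEC. From E14.5 to E16.5 in BEC, 3 genes were called, 5 with array weights, 5 when only the compared groups were fitted, and 1 to 2 when single arrays were left out (1 without BEC E14.5 replicate 1, BEC E14.5 replicate 2 or BEC E16.5 replicate 3). From E16.5 to E18.5 in BEC, 10 were called and 5 to 9 when single arrays were left out (5 without BEC E16.5 replicate 3, 6 without BEC E16.5 replicate 2 or BEC E18.5 replicate 3). From E14.5 to E18.5 in BEC, 13 were called and 7 to 11 when single arrays were left out (7 without BEC E14.5 replicate 2). In these counts fewer arrays leave fewer degrees of freedom. For LEC minus BEC, leaving out single arrays gave 32 to 33 calls over the 3 ages, 13 to 15 at E14.5, 30 to 32 at E16.5 and 32 to 33 at E18.5. For single genes, 6566 of 6883 values kept direction and side of the threshold, 225 lost the call and 92 gained it. The kept values include all 420 under the mean of a gene's probe sets. That setting could not change a member's difference, since each member has a single probe set. Cd68 and Timd4 over the 3 ages lost their calls without the E18.5 arrays (0.11, adjusted p 0.67, and 0.31, adjusted p 0.14). The fit of only the compared groups was not run for LEC minus BEC over the 3 ages, which uses all groups.

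Same-numbered LEC and BEC samples did not deviate together: over 9 pairs the correlation of deviations from the group means ran from -0.107 to 0.130, with 3 over 0.1 and 4 of 9 samples correlating best with their own number. With the replicate number as a block, the counts were 33, 16, 33 and 32 for LEC minus BEC over the 3 ages and then at each age in turn. Under the block C1qc at E14.5 gained a call (adjusted p 0.017) and Ms4a4a at E14.5 lost it (adjusted p 0.076), while among the interactions from E14.5 to E16.5 that of Ms4a7 gained a call (adjusted p 0.023) and that of Cd68 lost it (adjusted p 0.057); it changed no other call.

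Signal over background limits the members that are dim in BEC: at E16.5, 17 of the 35 genes were below the bound on all 3 BEC arrays. For 15 of them the difference is against a level not above background, and for Ms4a7 and Marco both groups were below the bound and no ratio was measured. At E14.5, 8 of the 35 genes had 1 of the compared groups below the bound on all arrays and 6 had both, and at E18.5 these counts were 9 and 1. Array values carry no read depth. Probe set values pool probes along the transcript, and isoforms were not resolved. The replicates are 3 per group, and the litters, the pooling of embryos and the purity of the isolates beyond the marker lists were not analysed here.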

Other observations

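Pf4, which encodes platelet factor 4 and stood in the platelet list, had a profile like that of the macrophage genes and was singled out after its values were seen. Its mean in LEC rose from 5.58 ± 0.09 (SD, n = 3) at E14.5 over 8.08 ± 0.84 to 8.84 ± 0.39 at E18.5, and the BEC means were 5.83 ± 0.07, 5.03 ± 0.11 and 4.57 ± 0.34. Its LEC values at E16.5 were 8.27, 7.16 and 8.81, lowest in replicate 2, the array in which most macrophage genes were lowest. The change of Pf4 from E14.5 to E18.5 in LEC exceeded that in BEC by 4.52 ± 0.40 (limma, adjusted p = 6.8e-07), close to the 4.95 ± 0.40 of Cd163. Of the 4 platelet genes measured, 1 was higher and 2 were lower in LEC over the 3 ages.

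Lyve1, a hyaluronan receptor known from lymphatic endothelium and from some tissue macrophages, was higher in LEC by 4.32 ± 0.13, 5.11 ± 0.13 and 5.67 ± 0.13 at the 3 ages and was not low in LEC E16.5 replicate 2.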
